A study of Rattus norvegicus with 12 samples.

Results

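The NF-kB system was followed through 10 genes, taken as the rows of the deposited tables with fixed Ensembl identifiers, out of 20263 genes in all. They comprise 4 of its subunits (NFKB1, ENSG00000109320; NFKB2, ENSG00000077150; RELA, ENSG00000173039; RELB, ENSG00000104856) and 2 inhibitors (NFKBIA, ENSG00000100906; NFKBIE, ENSG00000146232). The other 4 are transcriptional targets, TNFAIP3 (ENSG00000118503), BIRC3 (ENSG00000023445), TRAF1 (ENSG00000056558) and ICAM1 (ENSG00000090339). All 10 were present in the tables of the high-glucose groups and all passed the filter on low values. RNA was sequenced from 12 libraries of H9C2, a wild-type line derived from embryonic rat heart that the labels call cardiomyocytes, with 3 biological replicates in each of 4 groups after 48 h. HG-Res-SIRT7-Inh cells were kept in 100 mM glucose with 5 µM resveratrol, a plant polyphenol, and 5 µM of a compound that the labels call a SIRT7 inhibitor and name as SirReal2, better known as an inhibitor of SIRT2. HG-Res cells had 100 mM glucose and 5 µM resveratrol, HG cells 100 mM glucose alone, and Ctrl cells 5.5 mM glucose. The labels describe no osmotic control, no vehicle and no group given the inhibitor without resveratrol. Every group in the comparisons below shares high glucose, and the inhibitor was given only together with resveratrol. HG-Res-SIRT7-Inh against HG differs in both compounds, so their effects cannot be told apart there.

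NF-kB factors are dimers of Rel-family proteins. In resting cells IkB proteins such as those encoded by NFKBIA and NFKBIE hold the dimers in the cytoplasm, and signals from cytokine or innate immune receptors lead to destruction of IkB and entry of the dimers into the nucleus. The dimers then switch on a program that includes their own brakes: NFKBIA, NFKBIE and TNFAIP3 are themselves targets, so their transcripts are widely read as markers of NF-kB activity, alongside adhesion molecules such as ICAM1. RELA with the NFKB1 product p50 carries the canonical arm, and RELB with the NFKB2 product p52 the non-canonical arm. These roles come from work in human and mouse cells.

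The labels give rat and genome build rn6, whereas all 20263 identifiers carry Ensembl's human prefix, and whether the reads came from rat or human genes was not tested. The values are CPM, a gene's reads scaled to the total counted reads of its library and not to gene length, so levels are compared across libraries and never across genes. The depth read back from the steps between low values was 30.3 to 33.17 M counted reads, and the fewest reads behind any value used here were about 37 for TRAF1 in HG-Res-SIRT7-Inh replicate 3 (95% Poisson interval 26.1 to 51, counting error only). No member was among the 354 genes of the authors' deposited table of HG against Ctrl, which holds only genes carrying the authors' mark, so the levels in Ctrl are not analysed here. The labelled cell type was not checked against markers, since no names stand beside the identifiers. Replicates differed in spread: the median SD on the log2 scale over 12854 tested genes was 0.242 in HG-Res-SIRT7-Inh, 0.0713 in HG-Res and 0.132 in HG. On the first principal component, with 56.1% of the variance, HG-Res-SIRT7-Inh replicate 3 (50.7) and HG replicate 2 (-29.7) lay at the ends, with the other 7 libraries between -14.4 and 17.1.

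The promoters of TNFAIP3 and NFKBIA are shown because both are classical NF-kB feedback targets: TNFAIP3 fell with the inhibitor, and NFKBIA did not pass in that comparison and had a difference above 0. The sequences are RefSeq rat promoters (assembly GRCr8), from 250 bases before to 50 bases after the gene start, 5′ to 3′ on the gene's strand, matched by symbol, and 8 of the 10 members had an entry (not Relb and Birc3). Capitals mark matches to the kB consensus, which is GGG, a purine, any pair of bases, a pair of pyrimidines and CC, searched on both strands. Tnfaip3 is at chr1:15543930-15544229 on the minus strand and Nfkbia at chr6:78597023-78597322 on the minus strand.
Tnfaip3: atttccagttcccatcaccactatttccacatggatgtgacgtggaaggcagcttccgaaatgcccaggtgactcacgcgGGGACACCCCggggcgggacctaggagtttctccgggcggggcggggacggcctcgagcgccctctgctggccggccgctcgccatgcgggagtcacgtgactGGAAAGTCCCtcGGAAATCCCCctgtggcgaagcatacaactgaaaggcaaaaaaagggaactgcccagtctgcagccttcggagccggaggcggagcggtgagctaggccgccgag
Nfkbia: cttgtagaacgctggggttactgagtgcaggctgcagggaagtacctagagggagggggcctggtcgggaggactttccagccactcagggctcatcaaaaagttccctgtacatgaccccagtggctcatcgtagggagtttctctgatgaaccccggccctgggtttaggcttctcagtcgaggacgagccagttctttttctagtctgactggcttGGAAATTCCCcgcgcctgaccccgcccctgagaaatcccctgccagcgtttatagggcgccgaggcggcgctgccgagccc
Tnfaip3 held 3 matches, which start at -170, -67 and -55 from the gene start, and Nfkbia held 1 at -31. The first of the 3 in Tnfaip3 matches the consensus on both strands. The matches of the other members are given below as they read on the gene's strand, starting at 4, -20 and -164.
Nfkb1: GGGAATTTCC
Nfkb2: GGGACTTTCC
Nfkbie: GGGGGATTCC
A match was present in 5 of the 8 promoters, and in 7.51% of 33469 rat promoters of the same length. The windows of Rela, Icam1 and Traf1 held none. The search finds exact matches only, so a window with or without one may hold related sites that are not marked. The Icam1 window holds TGGAAATTCC and the Nfkbia window AGGACTTTCC, each of which departs from the consensus at its first base. Such near matches were not counted in any window, so the numbers of exact matches do not rank the promoters. These matches describe the rat sequence and were not tested for binding.

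Among the subunits, RELB and NFKB1 were lower in HG-Res-SIRT7-Inh than in HG, and no comparison called RELA or NFKB2. RELB, the partner of p52, was at 10.83, 11.04 and 6.77 CPM in HG-Res-SIRT7-Inh, 14.38, 14.92 and 14.95 CPM in HG-Res, and 16.38, 18.54 and 16.23 CPM in HG. The 3 groups did not overlap, and HG-Res-SIRT7-Inh replicate 3 was the lowest of the 9 libraries. RELB fell by 0.80 on the log2(CPM + 1) scale in HG-Res-SIRT7-Inh against HG (SE 0.16, limma adjusted p = 0.0142), a call lost in 2 of 18 alternatives, without HG replicate 1 (0.0515) and with HG-Res-SIRT7-Inh and HG alone (0.07). Against HG-Res its difference was -0.61 ± 0.16 (SE), short of the threshold (limma adjusted p = 0.0587). It passed in 5 of 18 alternatives, with -0.40 and adjusted p = 0.0222 when HG-Res-SIRT7-Inh replicate 3 was left out and 0.0425 under median-of-ratios scaling.

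NFKB1, which encodes the p105 precursor of p50, had 16.06, 14.61 and 13.87 CPM in HG-Res-SIRT7-Inh, 18, 18.37 and 17.55 CPM in HG-Res, and 20.34, 19.3 and 19.61 CPM in HG. Here too the libraries of each group lay apart from those of the next. NFKB1 fell by 0.39 (SE 0.09) in HG-Res-SIRT7-Inh against HG (limma adjusted p = 0.0299). The direction was the same in every alternative tried, but the call was lost in 10 of 18, among them the fits without any 1 HG or HG-Res library (adjusted p = 0.0634 to 0.126) and the fit with HG-Res-SIRT7-Inh and HG alone (0.142). Against HG-Res its difference was -0.26 ± 0.09 (SE, limma adjusted p = 0.133).

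RELA, the main transactivating subunit, had 108.11, 103.57 and 76.09 CPM in HG-Res-SIRT7-Inh, 109.39, 108.08 and 106.65 CPM in HG-Res, and 88.22, 97.69 and 87.95 CPM in HG. The 3 HG-Res libraries were above all 3 HG libraries, and HG-Res-SIRT7-Inh replicates 1 and 2 were as well, with replicate 3 below all of them. NFKB2, which encodes the p100 precursor of p52, followed the same outline, at 68.28, 63.05 and 41.79 CPM in HG-Res-SIRT7-Inh, 61.58, 66.5 and 60.58 CPM in HG-Res, and 51.5, 57.41 and 52.2 CPM in HG. In HG-Res against HG the log2 differences were 0.24 for RELA (95% interval -0.06 to 0.54, limma adjusted p = 0.593) and 0.22 for NFKB2 (-0.15 to 0.60, limma adjusted p = 0.734). Without HG replicate 2 and replicate 3 of HG-Res-SIRT7-Inh, whose spread enters the shared fit, both were called as higher, RELA at 0.29 (limma adjusted p = 0.0106) and NFKB2 at 0.27 (0.0252). These libraries lay at the ends of the first principal component of the same data. Without them 21.2% of all tested genes passed, against 0.708% with all 9 libraries. In HG-Res-SIRT7-Inh against HG the differences of RELA and NFKB2 were 0.06 (-0.25 to 0.36) and 0.07 (-0.30 to 0.45), and they depended on single libraries. Without HG-Res-SIRT7-Inh replicate 3 NFKB2 was higher than in HG by 0.29 (limma adjusted p = 0.0415), where 21.1% of tested genes passed. Without it and HG replicate 2 NFKB2 differed by 0.33 and RELA by 0.26 (limma adjusted p = 0.00992 and 0.0116), where 31% passed. Without HG-Res-SIRT7-Inh replicate 1 the signs were turned, at -0.06 for NFKB2 and -0.04 for RELA.

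**Figure D1:**
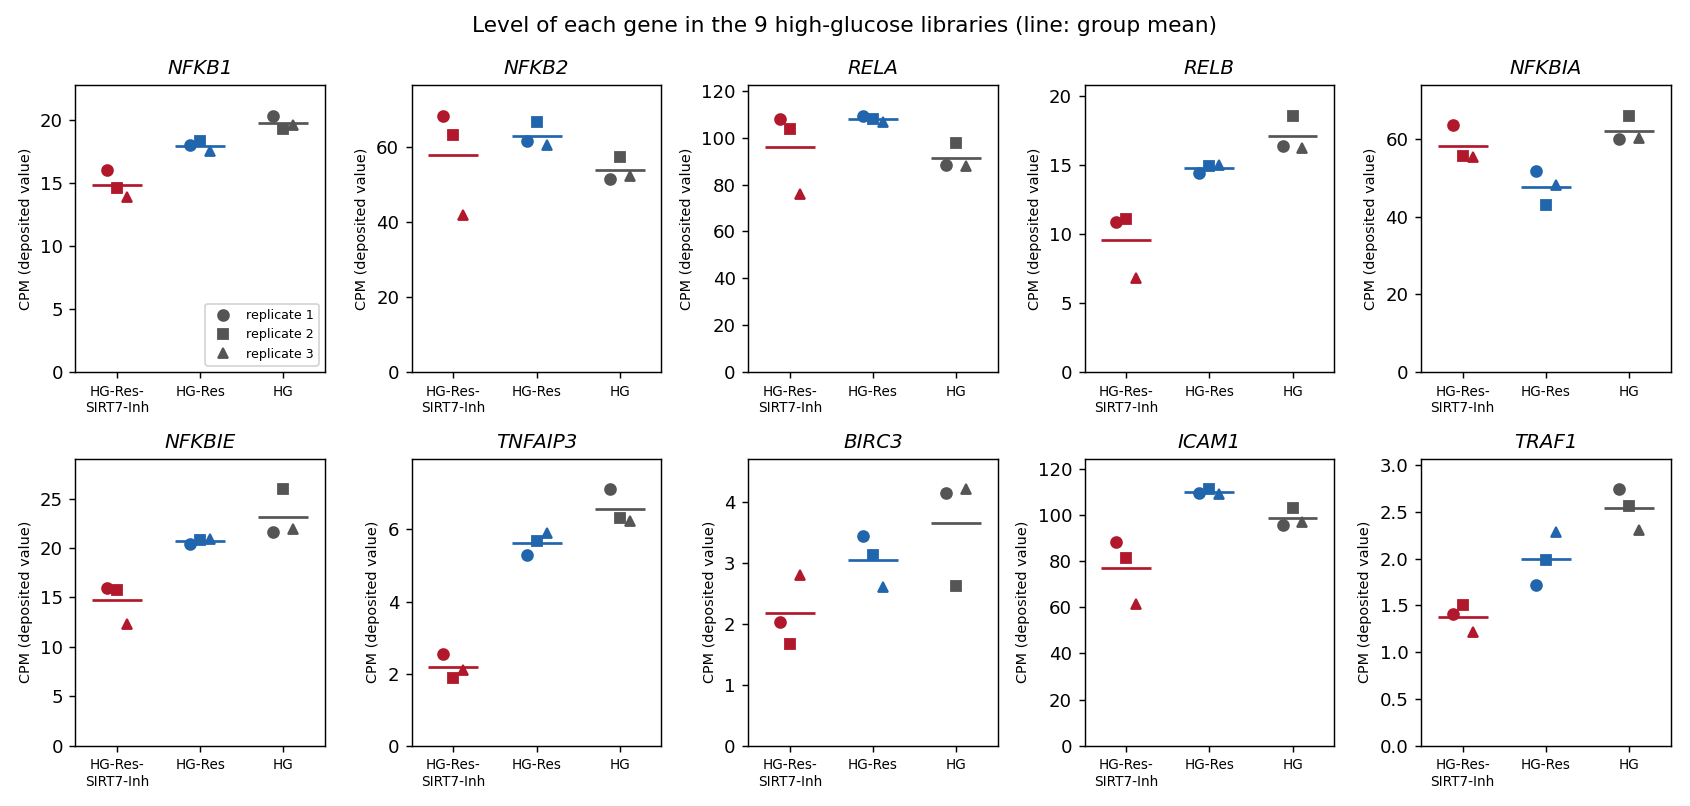
Level of each of the 10 genes in CPM (vertical axis from 0) in the 3 high-glucose groups; each symbol is a library and each line a group mean. TNFAIP3 sits at 1.89 to 2.54 CPM in HG-Res-SIRT7-Inh, below every HG-Res and HG library, while NFKBIA is lowest in HG-Res and the triangles of HG-Res-SIRT7-Inh replicate 3 lie low for RELA, NFKB2, RELB and ICAM1.

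The inhibitor genes NFKBIA and NFKBIE, which encode IkB alpha and IkB epsilon, gave different patterns. NFKBIA was at 63.52, 55.73 and 55.33 CPM in HG-Res-SIRT7-Inh, 51.82, 43 and 48.2 CPM in HG-Res, and 59.99, 66 and 60.3 CPM in HG. The HG-Res libraries were below all others, and the groups on either side of them overlapped. The log2 difference of NFKBIA in HG-Res against HG was -0.38 ± 0.11 (SE), which limma did not call with all 9 libraries (unadjusted p = 0.00679, adjusted p = 0.217). It passed without HG-Res-SIRT7-Inh replicate 3 (limma adjusted p = 0.0474) and had a q-value of 0.022 in the authors' deposited table. In HG-Res-SIRT7-Inh against HG-Res the difference of NFKBIA was 0.28 ± 0.11 (SE, limma adjusted p = 0.156), and against HG it was -0.09 (95% interval -0.34 to 0.15).

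NFKBIE had 16, 15.76 and 12.35 CPM in HG-Res-SIRT7-Inh, 20.42, 20.77 and 20.93 CPM in HG-Res, and 21.63, 25.93 and 21.95 CPM in HG. The HG-Res-SIRT7-Inh libraries were the lowest, with a gap to both other groups. NFKBIE fell by 0.63 (SE 0.12) in HG-Res-SIRT7-Inh against HG (limma adjusted p = 0.0127), a call lost in 1 of 18 alternatives, the fit with these groups alone (0.0747). Against HG-Res its difference of -0.48 ± 0.12 (SE) missed the threshold (limma adjusted p = 0.0534), and 6 of 18 alternatives passed it, one of which left out HG-Res-SIRT7-Inh replicate 3 (-0.36, adjusted p = 0.0454).

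TNFAIP3 encodes A20, a ubiquitin-editing enzyme that shuts off signalling from cytokine receptors, and fell in both comparisons of HG-Res-SIRT7-Inh, by the largest log2 change of the 10 genes in each. It was at 2.54, 1.89 and 2.11 CPM in HG-Res-SIRT7-Inh, 5.28, 5.69 and 5.89 CPM in HG-Res, and 7.11, 6.33 and 6.24 CPM in HG. Every inhibitor library lay below every other library by a wide gap, and replicate 3 was within the range of replicates 1 and 2. TNFAIP3 averaged 2.18 ± 0.331 CPM in HG-Res-SIRT7-Inh and 5.62 ± 0.311 CPM in HG-Res (SD, n = 3 each), 61.2% lower by the ratio of means. The log2 change was -1.06 ± 0.11 (SE, limma adjusted p = 0.000487), and against HG it was -1.25 ± 0.11 (limma adjusted p = 0.00014). TNFAIP3 kept both calls in all 18 alternatives, with limma adjusted p from 0.00042 to 0.00509 against HG-Res and from 0.000129 to 0.00317 against HG. In HG-Res against HG its libraries did not overlap, but the difference of -0.19 ± 0.11 (SE) did not pass (95% interval -0.43 to 0.05, limma adjusted p = 0.598).

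BIRC3 and TRAF1, whose products cIAP2 and TRAF1 act together at tumour necrosis factor receptors, were at low levels. TRAF1 had 1.41, 1.51 and 1.22 CPM in HG-Res-SIRT7-Inh, 1.72, 1.99 and 2.29 CPM in HG-Res, and 2.74, 2.56 and 2.31 CPM in HG. Its groups lay one below the other without overlap, although the highest HG-Res and lowest HG libraries were only 0.02 CPM apart, about 0.66 of a read in the deepest library. TRAF1 fell by 0.57 (SE 0.11) in HG-Res-SIRT7-Inh against HG (limma adjusted p = 0.00947), a call lost without HG replicate 1 (0.053), and its difference against HG-Res was -0.33 ± 0.11 (SE, limma adjusted p = 0.1). BIRC3 had 2.04, 1.67 and 2.81 CPM in HG-Res-SIRT7-Inh, 3.44, 3.13 and 2.6 CPM in HG-Res, and 4.15, 2.62 and 4.21 CPM in HG. All 3 groups overlapped, and replicate 3 was the highest inhibitor library here. The difference of BIRC3 in HG-Res-SIRT7-Inh against HG was -0.55 ± 0.18 (SE, limma adjusted p = 0.0785). It passed without HG replicate 2 (-0.72, limma adjusted p = 0.0332) or without HG-Res-SIRT7-Inh replicate 3 (-0.69, 0.026).

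ICAM1 encodes an adhesion molecule bound by leukocyte integrins. It was at 88.29, 81.16 and 61.24 CPM in HG-Res-SIRT7-Inh, 109.55, 111.08 and 109.19 CPM in HG-Res, and 95.64, 103.24 and 97.11 CPM in HG. HG-Res was the highest group and the inhibitor group the lowest, with no overlap. ICAM1 fell by 0.53 (SE 0.13) in HG-Res-SIRT7-Inh against HG-Res, just inside the threshold (limma adjusted p = 0.0481). The call was lost in 10 of 18 alternatives, with adjusted p of 0.00371 to 0.175 over the limma alternatives, among them those that left out HG-Res-SIRT7-Inh replicate 2, any 1 HG-Res replicate or any 1 HG replicate (0.052 to 0.175). Without HG-Res-SIRT7-Inh replicate 3 the difference was -0.37, and it passed. Against HG the difference of ICAM1 was -0.37 ± 0.13 (SE, limma adjusted p = 0.105). It was -0.22 without HG-Res-SIRT7-Inh replicate 3 (0.0584), and it was called at -0.48 without HG-Res-SIRT7-Inh replicate 1 (limma adjusted p = 0.0378).

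**Figure D2:**
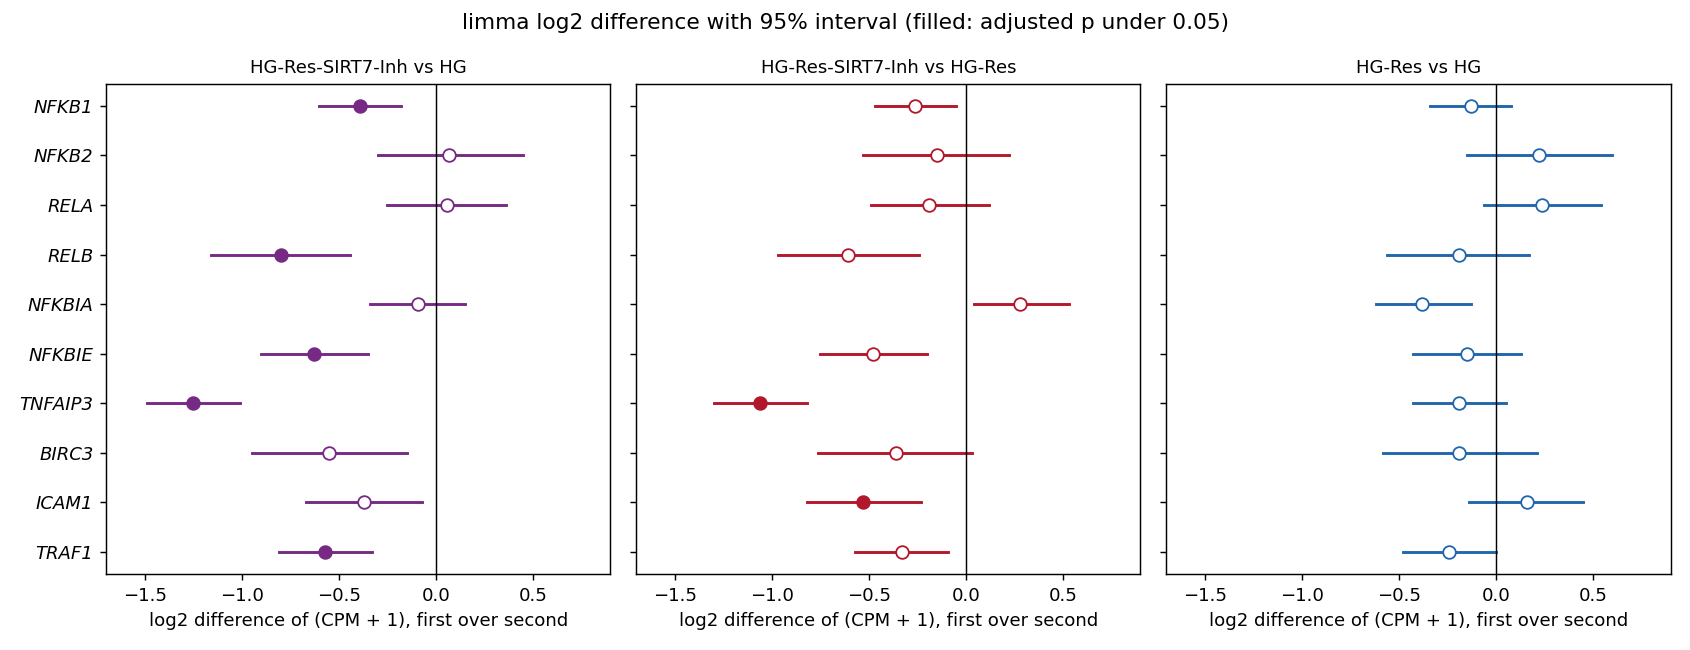
limma log2 difference of (CPM + 1) for each gene (horizontal axis) with its 95% interval, in the 3 comparisons; filled points passed an adjusted p of 0.05. TNFAIP3 is filled in both inhibitor panels, at -1.25 and -1.06, and no gene is filled for HG-Res against HG.

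By comparison, the inhibitor added to resveratrol called 2 of the 10 genes, TNFAIP3 and ICAM1, both lower, where limma called 6.07% of all tested genes in either direction with 4.19% lower and 1.88% higher. An unadjusted p under 0.05 was reached by 7, where 24.6% of tested genes reached it. Over the 10 genes 9 had a difference below 0, against 45% of all tested genes, and the median was -0.35, against 0.040 over all genes. The libraries of HG-Res-SIRT7-Inh and HG-Res did not overlap for 7 of the 10, against 33.7% of all genes. Of these, 6 were lower (16% of all genes) and NFKBIA was higher (17.7%). The authors' deposited table had q-values under 0.05 for RELB, NFKBIE, TNFAIP3 and ICAM1, with log2 fold changes of -0.67, -0.53, -1.40 and -0.55, against 8.69% of tested genes in either direction and 5.38% lower. In these bulk cultures fewer cells of a type and less RNA per cell cannot be told apart.

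Resveratrol with the inhibitor against high glucose alone gave 5 calls, NFKB1, RELB, NFKBIE, TNFAIP3 and TRAF1, all lower, beside 10.8% of all tested genes in either direction with 6.5% lower and 4.27% higher. An unadjusted p under 0.05 was reached by 7, where 27.9% of tested genes reached it. The median of the 10 was -0.47, against 0.038 over all genes, and 8 were below 0, against 45.4% of all genes. The libraries did not overlap for 6 of the 10, all lower, against 28.1% of all genes, 15.3% lower and 12.8% higher. The authors' deposited table had q-values under 0.05 for 4 of the 5, without NFKB1 (0.0723), against 7.84% of tested genes in either direction and 4.85% lower. This comparison and the last share the HG-Res-SIRT7-Inh libraries.

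Resveratrol alone against high glucose gave 0 calls among the 10 genes in limma, where 0.708% of tested genes passed, 0.381% lower and 0.327% higher. That fit shares its spread with HG-Res-SIRT7-Inh. With HG-Res and HG alone the count was also 0, and the lowest limma adjusted p were 0.0579 for NFKBIA and 0.0833 for RELA. The share of all tested genes that passed in that fit is not given, so this count has no background to be read against. At an unadjusted p under 0.05 in the shared fit there were 2, NFKBIA and TRAF1, where 10.7% of tested genes passed. By the q-values of the authors' deposited table only NFKBIA passed, as lower, against 8.47% of tested genes in either direction and 3.8% lower. The libraries did not overlap for 9 of the 10 genes, against 29.9% of all tested genes. Of these, 6 were lower (14.8% of all genes) and RELA, NFKB2 and ICAM1 were higher (15%). A difference below 0 was found for 7 of the 10, against 50.1% of tested genes, and the median was -0.17, against -0.001 over all genes. The differences were small, from 23.2% lower for NFKBIA to 18.4% higher for RELA by the ratio of means.

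HG-Res-SIRT7-Inh replicate 3, which stood apart over all genes, was also low for several of the 10. It was below both other inhibitor replicates for 8 of the 10 genes, against 46.1% of tested genes, the exceptions being TNFAIP3 and BIRC3. The log2 gap to the mean of replicates 1 and 2 was -0.64 for NFKB2, -0.62 for RELB, -0.47 for RELA, -0.46 for ICAM1 and -0.34 for NFKBIE. For NFKB1, NFKBIA, TRAF1 and TNFAIP3 it was between -0.15 and -0.04, and for BIRC3 it was 0.42. Over all tested genes the gap had a median of -0.02 and ran from -0.69 to 0.78 between the 5th and 95th percentiles. Without that library limma called 4 of the 10 against HG-Res (RELB, NFKBIE, TNFAIP3 and ICAM1) and 7 against HG (NFKB2 as higher, with NFKB1, RELB, NFKBIE, TNFAIP3, BIRC3 and TRAF1 lower), where 9.14% and 21.1% of tested genes passed. In HG-Res against HG it called NFKBIA alone, where 6.23% passed. Without HG replicate 2 it called 2 genes in HG-Res-SIRT7-Inh against HG-Res, TNFAIP3 and NFKBIE but not ICAM1 (7.02% of tested genes). It called 5 against HG, with BIRC3 and without NFKB1 (5.56%), and 0 in HG-Res against HG (0.42%). With neither of these libraries it called 6 against HG-Res (18.8%): RELB, NFKBIE, TNFAIP3, BIRC3 and ICAM1 as lower and NFKBIA as higher. It called 8 against HG (31%): NFKB2 and RELA as higher, and NFKB1, RELB, NFKBIE, TNFAIP3, BIRC3 and TRAF1 as lower. In HG-Res against HG it called RELA and NFKB2 as higher and NFKBIA as lower (21.2%).

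**Figure D3:**
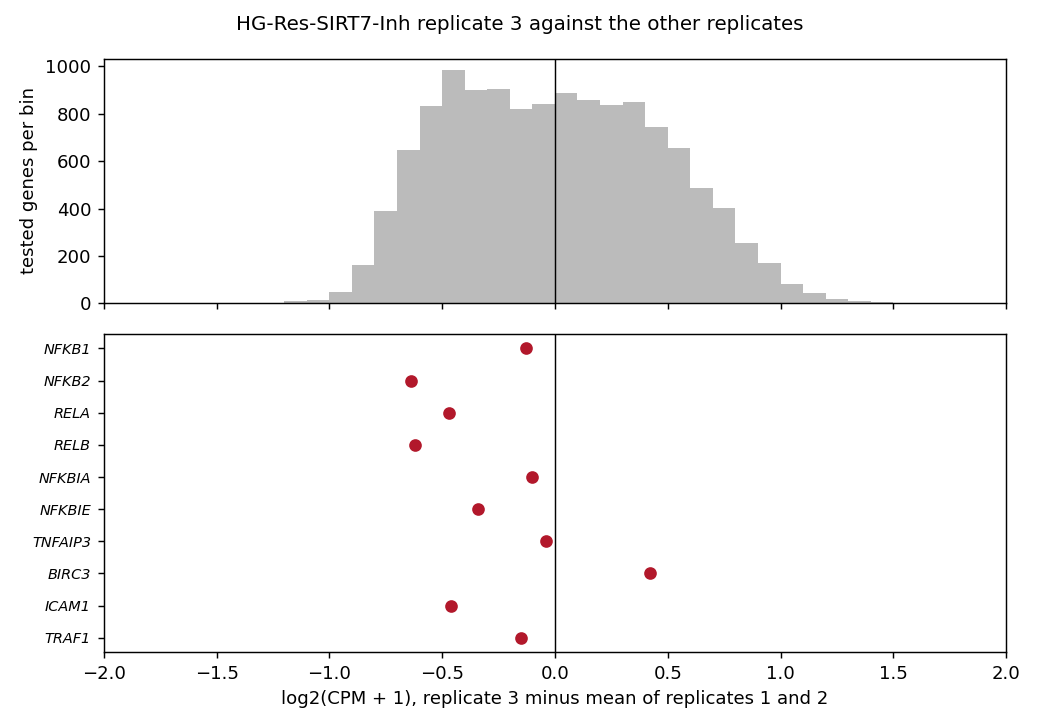
Difference in log2(CPM + 1) between HG-Res-SIRT7-Inh replicate 3 and the mean of replicates 1 and 2 (horizontal axis); the upper panel counts all 12854 tested genes per bin and the lower panel shows the 10 genes. NFKB2 and RELB lie at -0.64 and -0.62, while TNFAIP3 lies at -0.04.

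Ratios of 2 genes within a library do not depend on how the libraries were scaled, and 4 were taken after the values had been seen, each as a change between groups and not as a comparison of levels. The RELB/RELA ratio was 0.1, 0.107 and 0.089 in HG-Res-SIRT7-Inh, 0.131, 0.138 and 0.14 in HG-Res, and 0.186, 0.19 and 0.185 in HG. The groups were apart, and replicate 3, low for both genes, stood close to the other inhibitor libraries. On the log2 scale the RELB/RELA difference was -0.92 in HG-Res-SIRT7-Inh against HG, -0.47 against HG-Res, and -0.45 in HG-Res against HG. The ratio to RELA was lower without overlap for 21.4%, 9.59% and 45.5% of the other tested genes in these comparisons, and RELA itself stood higher in all 3 HG-Res libraries than in HG. The NFKB1/NFKB2 ratio, at 0.235, 0.232 and 0.332 in HG-Res-SIRT7-Inh, 0.292, 0.276 and 0.29 in HG-Res, and 0.395, 0.336 and 0.376 in HG, overlapped in the comparison of HG-Res-SIRT7-Inh against HG-Res only. Between HG-Res-SIRT7-Inh and HG the gap was narrow, from 0.332 in replicate 3 to 0.336 in HG replicate 2, both outlying libraries. The log2 difference of NFKB1/NFKB2 against HG was -0.49 in HG-Res-SIRT7-Inh and -0.36 in HG-Res, where the ratio to NFKB2 was lower without overlap for 19.7% and 38.9% of the other tested genes.

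The TNFAIP3/NFKBIA ratio was 0.04, 0.0339 and 0.0381 in HG-Res-SIRT7-Inh, 0.102, 0.132 and 0.122 in HG-Res, and 0.119, 0.0959 and 0.103 in HG. The inhibitor libraries lay below all others, while HG-Res and HG overlapped. The log2 difference was -1.66 against HG-Res and -1.50 against HG, where the ratio to NFKBIA was lower without overlap for 39.2% and 11.9% of the other tested genes. The NFKBIE/NFKBIA ratio was 0.252, 0.283 and 0.223 in HG-Res-SIRT7-Inh, 0.394, 0.483 and 0.434 in HG-Res, and 0.361, 0.393 and 0.364 in HG, a log2 difference of -0.79 against HG-Res and -0.57 against HG. In HG-Res against HG it was 0.23, without overlap, where 58% of the other tested genes were likewise higher relative to NFKBIA. Over the 12 ratio comparisons, 10 did not overlap and had an exact two-sided permutation p of 0.1, the smallest that 3 against 3 allow (0.12 after Benjamini-Hochberg adjustment). This p follows from the lack of overlap and adds nothing to it. The adjustment covers only these ratios, which were chosen after the values had been seen.

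**Figure D4:**
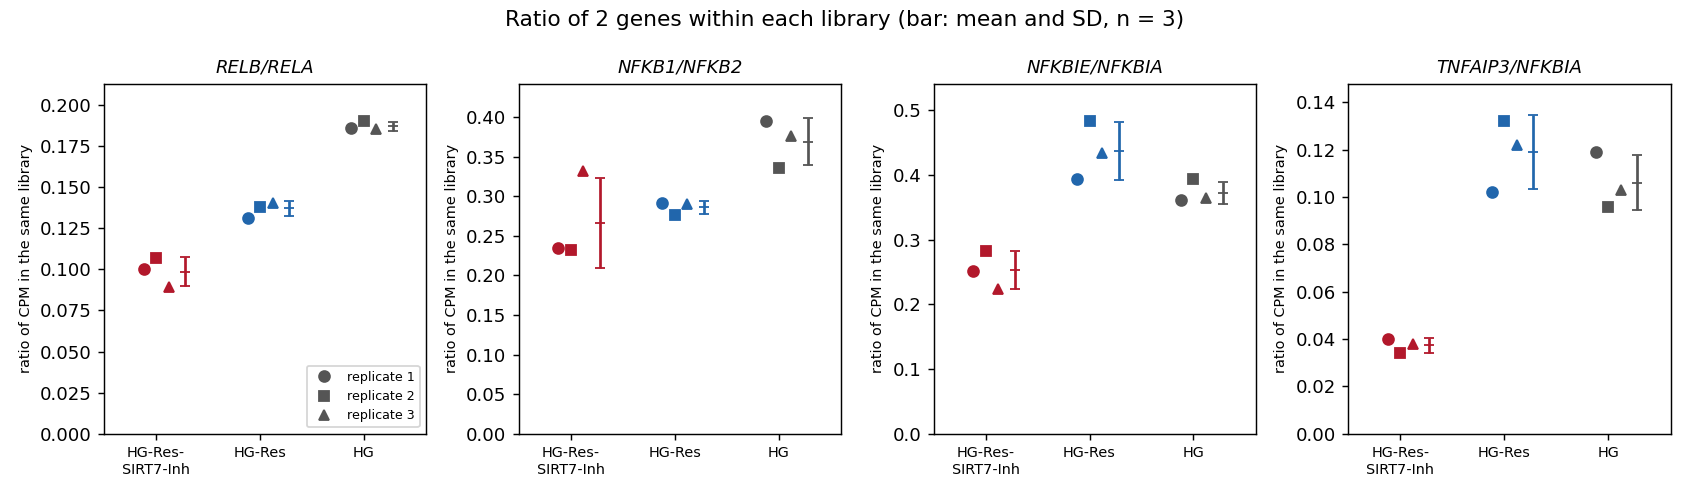
Ratio of the CPM of 2 genes in the same library (vertical axis from 0) in the 3 groups; symbols are libraries, and bars show the mean and SD (n = 3). TNFAIP3/NFKBIA is between 0.0339 and 0.04 in HG-Res-SIRT7-Inh, below all HG-Res and HG libraries, and RELB/RELA is apart in all 3 groups.

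The pattern of RELB over the 9 libraries was most like that of ENSG00000120942 (Pearson r = 0.996 on the log2 scale), and that of TNFAIP3 was most like ENSG00000170425 (r = 0.991). Within the set, NFKBIE was at r = 0.99 with RELB, rank 19 of the 12853 other tested genes, and NFKB1 at r = 0.95 with TNFAIP3, rank 104. RELA and NFKB2 were at r = 0.39 and 0.38 with RELB and at 0.11 and 0.05 with TNFAIP3, and NFKBIA at 0.04 and -0.11. The 9 libraries are 3 groups of 3, so differences between groups enter these values, which are a description.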

How the data were processed

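Per the labels' protocols, libraries were made from poly(A) RNA and read as 150 bp pairs. Per the submitters' processing notes, Trimmomatic was used and the build was rn6; aligner, counter and annotation: not given in the sources used here. The authors deposited, per library, values headed TPM that behave as CPM. Values up to 2 CPM were whole multiples of 1 step per library within rounding (0.005 CPM) in 100% of cases. They were within 0.1 of a read in 58.08% to 78.2%, a limit finer than the rounding, so that check cannot decide whether they are whole reads. No count test was run on these scaled values. The authors also deposited a log2 fold change, p-value and q-value per gene; which test produced them is not stated. Gene names are those of the member list; the files pair no identifiers with names, 0 of 20263 identifiers matched the rat gene table, and so the planned list of other pathway genes and the marker lists were not analysed here.

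Of the 9 libraries with high glucose, at least 3 had to reach 0.5 CPM, which left 12854 genes, tested as log2(CPM + 1) with limma 3.58.1 in R 4.3.3: 1 fit over 3 groups, intensity trend, Benjamini-Hochberg adjustment over all genes at 0.05. Fold changes on this scale understate low genes. The fit was also run on simulated data with independent noise of the same spread in every group. The real groups differed in spread, so that run cannot show how reliable the calls are here. All 10 members are named; pattern likeness used the 2 members with the largest log2 change on adding the inhibitor to resveratrol, of which the first gene each is printed. P-values measure the spread between samples labelled biological replicates, which the fit shares over all 3 groups. Those of HG-Res against HG therefore also take in the wider spread of HG-Res-SIRT7-Inh. Those of HG-Res-SIRT7-Inh against HG take in the narrower spread of HG-Res, and those against HG-Res the narrower spread of HG. With the compared groups alone the 5 calls against HG became 2, and ICAM1 lost its call against HG-Res (limma adjusted p = 0.103). The members, lists and tests were chosen with earlier results of these data known.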

Additional observations from a re-analysis of the deposited data

How the results depend on the processing

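The counts of called genes among the 10 were recomputed under 18 alternatives. Calls over all tested genes moved as well. For HG-Res against HG their share was 0.708% with all 9 libraries and 21.2% in the fit lacking both outlying ones. A changed count alone therefore does not set the 10 genes apart from the rest. Shares over all genes are not given for several alternatives, among them median-of-ratios scaling, no filter, the compared groups alone and the replicate block. For HG-Res against HG the count of 0 became 1 by the authors' q-values and 3 with both outlying libraries left out (HG replicate 2 plus replicate 3 of HG-Res-SIRT7-Inh), and it was 0 to 1 without any 1 library. For the inhibitor added to resveratrol the count of 2 became 4 under median-of-ratios scaling or by the authors' q-values, 1 with no filter, with these groups alone or with a replicate block, 6 without both libraries, and 1 to 4 without any 1 library. For HG-Res-SIRT7-Inh against HG the count of 5 became 2 with these groups alone, 8 without both libraries and 2 to 7 without any 1 library (2 without HG replicate 1, NFKBIE and TNFAIP3). With the block it was 4, without NFKB1 (limma adjusted p = 0.0576), and TNFAIP3 was called in both inhibitor comparisons. Deviations of same-numbered libraries from their group means correlated at -0.547 to 0.636, which does not settle whether replicate numbers pair the libraries. The filter at 1 CPM, a pseudocount of 0.1 and the fit without an intensity trend left the 3 counts as they were. With the pseudocount of 0.1 the log2 change of TNFAIP3 was -1.34 against HG-Res and -1.55 against HG. Over the 30 gene comparisons and 18 alternatives, 485 of 540 values kept direction and side of the threshold, 25 passed it, 24 lost it and 6 changed sign. The sign changes were NFKB2 against HG-Res without HG-Res-SIRT7-Inh replicate 3 (0.06, also without both libraries), NFKB2 against HG without HG-Res-SIRT7-Inh replicate 1 or 2 (-0.06 and -0.01) and RELA against HG without the same libraries (-0.04 and -0.01). NFKB2 also ranged from -0.29 to 0.06 against HG-Res and to 0.29 against HG, and RELA to 0.21, on leaving out 1 HG-Res-SIRT7-Inh library. No ratio changed sign when any 1 library was left out, an alternative chosen after seeing the data. The causes were not tested. A stricter q-value on the HG against Ctrl table could only shorten its list, which already holds 0 of the 10. The counts of other pathway genes were not run because no table pairs identifiers with names. TNFAIP3, BIRC3 and TRAF1 rest on the fewest reads, 59, 52 and 37 in their lowest libraries.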
